A study of Homo sapiens with 8 samples.

Results

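The GABA-A receptor subunits described here are 7 genes, the alpha subunit genes GABRA2, GABRA3 and GABRA5, the beta subunit genes GABRB1 and GABRB2, and GABRE and GABRP, which encode the epsilon and pi subunits. They are part of the subunit family of the GABA-A receptor, the receptor that cyclodiene insecticides act on. Further subunits are described below. Every probe set whose annotation named 1 of the 7 and no other gene was kept. This gave 18 probe sets of the 49293 that were not controls, and 7 of the 18132 genes measured by probe sets that name a single gene. Gene expression was measured in DU145, a human prostate cancer cell line, on 8 one-color arrays. In 4 Aldrin-exposed samples the cells had been grown for 50 days in 1 µM Aldrin, a cyclodiene insecticide, at a final DMSO concentration of 0.01%. The 4 Non-exposed samples carry the treatment None. The labels do not state whether their medium held the solvent or how long they had been in culture. Whether the 4 samples of a group were separate cultures is not stated in the labels, and the p-values below therefore cover the spread between these samples alone.

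GABA-A receptors are pentameric chloride channels that open when they bind GABA, and in adult neurons the chloride current usually inhibits firing. Most contain alpha and beta subunits, at whose interface GABA binds, and a further subunit such as gamma, delta or epsilon. Cyclodienes block the channel pore without competing for the GABA site, and Aldrin is converted in the body to dieldrin, which acts in the same way. Although best known from the brain, some subunits, the pi subunit among them, are also found in epithelial tissues.

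The subunit genes lie in clusters. GABRA2 and GABRB1 lie on chromosome 4 in the order GABRG1, GABRA2, GABRA4 and GABRB1, and GABRA5 lies on chromosome 15 next to GABRG3. GABRB2 lies next to GABRA6 on chromosome 5, and GABRP lies on the same chromosome. GABRE, GABRA3 and GABRQ follow each other on the X chromosome, with 2 other protein-coding genes between GABRE and GABRA3.

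The stretches of 250 bases before the start of 3 members are shown because they differ widely in base composition while the transcripts of all 3 read low. They come from RefSeq on GRCh38.p14 at chr4:47031317-47031566 (plus strand) for GABRB1, chr5:161546726-161546975 (minus strand) for GABRB2 and chrX:151974677-151974926 (minus strand) for GABRE. Each is written along the strand of its gene, and capitals mark the palindrome GCGCATGCGC, which reads the same on both strands and was the only motif searched for.
GABRB1: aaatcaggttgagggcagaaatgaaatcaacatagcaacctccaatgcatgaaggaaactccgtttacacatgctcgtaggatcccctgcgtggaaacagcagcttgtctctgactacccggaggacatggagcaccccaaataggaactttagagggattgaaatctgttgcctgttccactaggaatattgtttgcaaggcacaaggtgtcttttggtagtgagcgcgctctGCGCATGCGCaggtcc
GABRB2: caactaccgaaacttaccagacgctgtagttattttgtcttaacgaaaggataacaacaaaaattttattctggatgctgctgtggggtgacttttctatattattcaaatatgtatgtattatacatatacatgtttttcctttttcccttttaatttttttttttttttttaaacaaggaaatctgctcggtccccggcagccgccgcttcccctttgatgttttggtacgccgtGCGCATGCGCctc
GABRE: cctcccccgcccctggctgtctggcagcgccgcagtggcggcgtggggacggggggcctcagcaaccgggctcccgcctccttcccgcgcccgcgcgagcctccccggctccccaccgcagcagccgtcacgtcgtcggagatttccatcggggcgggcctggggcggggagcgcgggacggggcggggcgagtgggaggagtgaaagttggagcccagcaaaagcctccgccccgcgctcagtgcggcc
G and C made up 49.2% of the bases before GABRB1, 38.0% before GABRB2 and 76.8% before GABRE, while the median of 35116 promoters was 58.0%. GABRB2 stood at the 9.51st percentile of these promoters and GABRE at the 92.5th. The palindrome, which the transcription factor NRF1 is known to bind, lay 16 to 7 bases before the start of GABRB1 and 13 to 4 bases before that of GABRB2. It occurred in 2 of the 7 entries held for the members, which cover 5 genes with 3 entries for GABRA2, and in 362 of all 35116 promoters (1.03%). The bases before GABRP held 54.8% G and C and 3 CpG dinucleotides. GABRA3 and GABRA5 had no entry.

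The deposited values are log2 intensities made with RMA, which brings all arrays to a common distribution. The array medians accordingly lay between 8.05 and 8.10, and pairs of arrays correlated at 0.9832 to 0.9969 over all probe sets. Aldrin-exposed replicate 3 and Non-exposed replicate 4 were the 2 arrays most alike, although they carry different labels. They correlated at 0.9969, and their deviations from their own group means correlated at 0.783 over all probe sets and at 0.47 over the 18 member probe sets. On the first principal component, which held 53.3% of the variance, they lay at 0.621 and 0.439, and Non-exposed replicates 1 and 3 lay on the other side at -0.396 and -0.417. The epithelial identity of DU145 was visible in 16 of 16 probe sets of KRT8, KRT18, KRT19, CDH1 and EPCAM, which read between 8.50 and 12.97, all above the array median. The mean was lower in Aldrin-exposed cells for 16 of these 16, with log2 differences of -0.67 to -0.09, while 25528 of all 49293 probe sets were lower. The 16 cover only 5 genes and are not separate results. By limma 0 had an adjusted p under 0.05. An unadjusted p under 0.05 was reached by 2, both of CDH1, against 3.07% of all probe sets. The part of these lower means in the members' values was not tested. Of the probe sets used for androgen-driven prostate luminal cells, those of KLK2, KLK3, TMPRSS2 and SLC45A3, 0 of 24 had a mean above it, and of the blood markers 0 of 13. Of 17 probe sets of neuronal genes 2 had a mean above it, one each of TUBB3 and MAP2.

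None of the subunits read above the array median. The group mean lay above the median in 0 of 18 member probe sets in Non-exposed cells and in 0 of 18 in Aldrin-exposed cells, against 50.1% of all probe sets in Non-exposed cells and 50.1% in Aldrin-exposed cells. All 18 were below the median on each of the 8 arrays. Their means ran from 4.06 for a GABRA2 probe set to 5.95 for the probe set of GABRA5, and the 40th percentile of the arrays, at 7.19 to 7.24, was above every member value. Probe sets differ in how strongly they bind, so the order of these readings is not the order of transcript abundance.

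**Figure D1:**
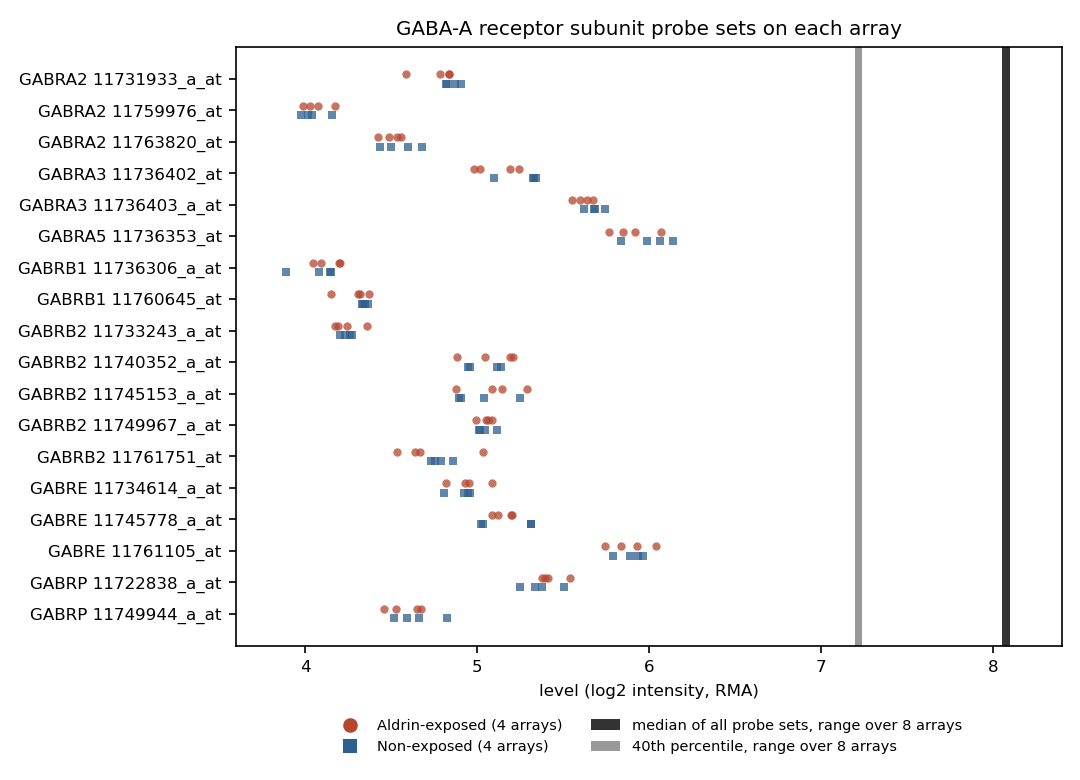
Levels of the 18 member probe sets (log2 intensity, horizontal axis) on the 4 Aldrin-exposed arrays (circles) and the 4 Non-exposed arrays (squares), 1 line per probe set, with bands for the 40th percentile and the median of all probe sets over the 8 arrays. Every point lies to the left of both bands, and the circles and squares of each probe set overlap.

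The array carries control probe sets for background, grouped by the number of G and C bases in their probes. Their means rose with that number from 3.594 with 3 such bases to 11.42 with 25. The range of the member means, 4.06 to 5.95, spans control means of 4.128 with 11 G or C bases, 4.599 with 13 and 5.407 with 15, and stays below the 6.13 of controls with 16. The base composition of the members' own probes is not given in the sources used here, so a level above background was not tested for.

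In the comparison of Aldrin-exposed with Non-exposed cells, which asks whether prolonged exposure was accompanied by other transcript levels, none of the subunits passed the test. By limma 0 of 18 member probe sets had an adjusted p under 0.05, where 1 of all 49293 probe sets (0.00203%) did. At an unadjusted p under 0.05 limma also called 0 of 18, against 3.07% of all probe sets. The test with unequal variances called 0 of 18 at an adjusted p under 0.05. It also called 0 of all 49293 probe sets, so that count says nothing about the members. The values of the 2 groups were fully separated in 0 of 18, against 1.99% of all probe sets. The mean was higher in Aldrin-exposed cells for 6 and lower for 12 of the 18, with a median log2 difference of -0.01, and over all probe sets 23765 were higher and 25528 lower, with a median of -0.00485. The median size of the difference, whatever its sign, was 0.0612 among the members and 0.0735 over all. The adjusted p of every member was 1 when rounded to 3 digits. For single probe sets a two-sided exact permutation test over the 8 arrays is given beside limma, and the smallest p it can give is 0.0286.

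**Figure D2:**
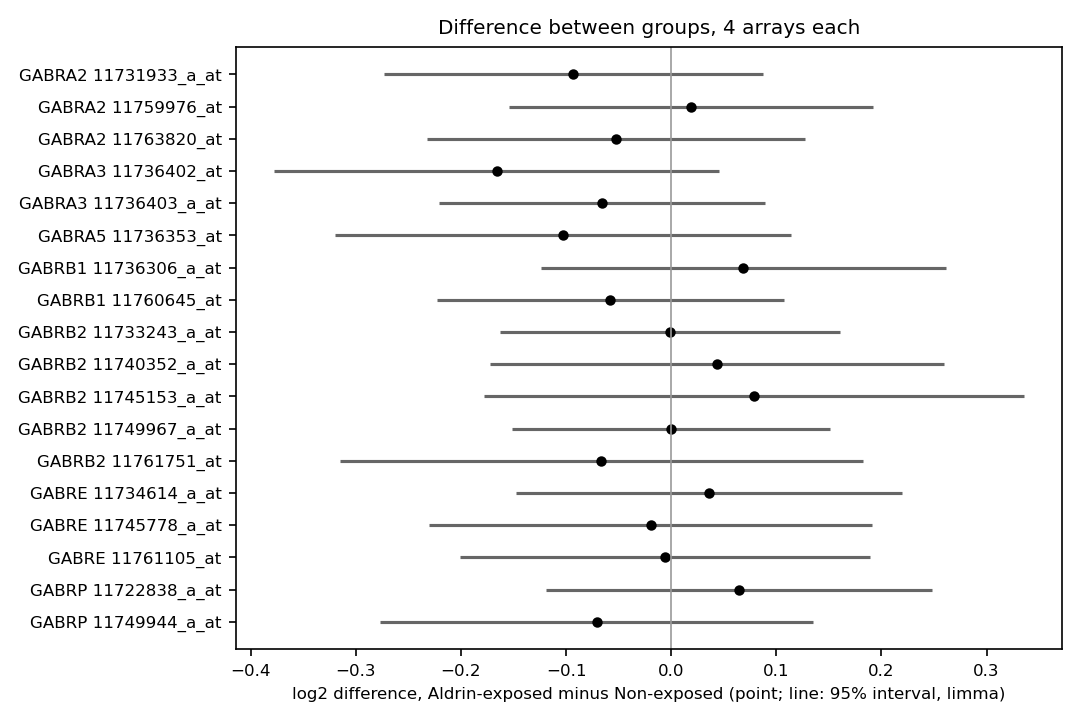
Log2 difference of each member probe set, Aldrin-exposed minus Non-exposed (point), with its 95% interval from limma (line), from 4 arrays in each group. Every interval includes 0, the lowest bound is -0.378 and the highest 0.336.

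The intervals bound how far the groups could differ. The 95% interval of the differences reached no lower than -0.378, for GABRA3, and no higher than 0.336, for GABRB2, which as ratios of intensity are 0.77 and 1.26. The spread within a group was narrow, with a median SD of 0.0971 among the member probe sets and 0.157 over all probe sets. At low intensities RMA values understate ratios of transcripts, so these bounds hold for intensity only. Since RNA came from whole cultures, a change in the share of cells with a transcript and a change in its amount per cell could not be told apart.

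Among the alpha subunits, GABRA3 had the largest difference of all members. Its probe set 11736402_at read 5.24, 5.01, 4.98 and 5.19 on Aldrin-exposed arrays 1 to 4 and 5.32, 5.33, 5.34 and 5.10 on Non-exposed arrays 1 to 4. Non-exposed replicates 1 to 3 were above every Aldrin-exposed array, while Non-exposed replicate 4, one of the pair most alike, lay among the exposed values. The log2 difference was -0.17 (SE 0.0939, 95% interval -0.378 to 0.0455, exact permutation p = 0.143, limma adjusted p = 1), with group means of 5.11 ± 0.13 and 5.27 ± 0.12 (SD, n = 4). Without Non-exposed replicate 4 the groups separated, with a difference of -0.225 (unadjusted limma p under 0.05, adjusted p = 0.823), and without both arrays of that pair it was -0.183 (limma adjusted p = 1). The second GABRA3 probe set, 11736403_a_at, read 5.55, 5.67, 5.64 and 5.60 in exposed and 5.68, 5.74, 5.62 and 5.68 in Non-exposed cells, a difference of -0.07 (SE 0.0687, exact permutation p = 0.143). Its groups overlapped through the single low value of Non-exposed replicate 3, and without that array they separated, at -0.0857 (limma adjusted p = 1). In both probe sets the array left out was one that had made the groups overlap, so separation without it is a description. The share of all probe sets separated in these settings was not computed. GABRA3 encodes an alpha subunit that in the brain takes part in benzodiazepine-sensitive receptors.

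GABRA5 encodes the alpha subunit of receptors that in hippocampal neurons lie largely outside the synapse and carry tonic current. Its 1 probe set, 11736353_at, read 5.92, 6.07, 5.77 and 5.85 on the exposed and 6.14, 5.99, 6.06 and 5.83 on the Non-exposed arrays. The exposed and Non-exposed values were interleaved, and in both groups the array of the pair most alike was the lowest. The group means were 5.90 ± 0.13 and 6.01 ± 0.13 (SD, n = 4), a difference of -0.10 (SE 0.0963, 95% interval -0.32 to 0.114, exact permutation p = 0.343). With 1 array left out it ran from -0.16 without Non-exposed replicate 4, and -0.159 without Aldrin-exposed replicate 2, to -0.0588 without Non-exposed replicate 1 and -0.0584 without Aldrin-exposed replicate 3. GABRA5 reached the 24.6th to 27.9th percentile of an array.

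GABRA2 encodes an alpha subunit that is enriched at inhibitory synapses on the axon initial segment. Its brightest probe set, 11731933_a_at, read 4.78, 4.84, 4.59 and 4.84 in exposed and 4.83, 4.87, 4.90 and 4.82 in Non-exposed cells, a difference of -0.09 (SE 0.0799, exact permutation p = 0.171). Aldrin-exposed replicate 3 was below all the others, and without it the difference was -0.0353. The remaining probe sets of the gene, 11759976_at and 11763820_at, had means of 4.06 and 4.53 and differences of 0.02 and -0.05. The 3 probe sets of GABRA2 spanned 0.752 in mean level, more than any difference between groups.

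The beta subunits form the GABA site together with alpha subunits and are needed for most receptors to reach the cell surface. GABRB1 was read by 11736306_a_at at 4.09, 4.20, 4.05 and 4.21 in exposed and 4.14, 4.08, 4.15 and 3.89 in Non-exposed cells, a difference of 0.07 (SE 0.0854, exact permutation p = 0.4). Its other probe set, 11760645_at, read 4.31, 4.15, 4.32 and 4.37 in exposed and 4.34, 4.33, 4.35 and 4.37 in Non-exposed cells, a difference of -0.06 (SE 0.0733, exact permutation p = 0.257). The signs differed and both intervals included 0. The first difference was 0.00992 without Non-exposed replicate 4 and the second -0.0124 without Aldrin-exposed replicate 2. Without Aldrin-exposed replicate 4, the highest of its group in 11760645_at, the groups of that probe set separated at -0.086 (limma adjusted p = 0.996).

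GABRB2, whose product is part of the most abundant receptor type of the brain, had 5 probe sets, with means from 4.24 to 5.06. They gave differences from -0.07 to 0.08, with 2 higher and 3 lower in exposed cells. The widest spread was that of 11761751_at, which read 4.64, 5.04, 4.67 and 4.53 in exposed and 4.79, 4.86, 4.73 and 4.75 in Non-exposed cells. Here 3 exposed values lay below all Non-exposed values and Aldrin-exposed replicate 2 lay above them all, which left a difference of -0.07 (SE 0.11, exact permutation p = 0.6). Without that array the groups separated, at -0.172 (unadjusted limma p under 0.05, adjusted p = 1). A further probe set annotated with the same accession, 11749967_a_at, read 5.09, 5.06, 4.99 and 5.05 in exposed and 5.05, 5.02, 5.12 and 5.01 in Non-exposed cells, with a difference of 0.00 on the log2 scale (SE 0.0671, exact permutation p = 1).

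The epsilon subunit, encoded by GABRE, makes receptors less sensitive to some anesthetics. The brightest of its 3 probe sets, 11761105_at, read 5.84, 6.04, 5.74 and 5.93 in exposed and 5.97, 5.93, 5.89 and 5.79 in Non-exposed cells. The groups overlapped almost fully, with means of 5.89 ± 0.13 and 5.89 ± 0.08 (SD, n = 4) and a difference of -0.01 (SE 0.0866, 95% interval -0.201 to 0.189, exact permutation p = 0.943). The other GABRE probe sets differed by 0.04 and -0.02. With 0.961 between the lowest and the highest mean, GABRE had the widest spread between probe sets of the 7 genes.

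The pi subunit, encoded by GABRP, is the member best known from epithelia such as those of the uterus and breast. Its probe set 11722838_a_at read 5.41, 5.54, 5.38 and 5.40 in exposed and 5.51, 5.34, 5.38 and 5.25 in Non-exposed cells, a difference of 0.06 (SE 0.0814, 95% interval -0.119 to 0.248, exact permutation p = 0.343). The second, 11749944_a_at, read 4.46, 4.67, 4.53 and 4.65 in exposed and 4.66, 4.59, 4.83 and 4.52 in Non-exposed cells, a difference of -0.07 (SE 0.0913, exact permutation p = 0.514). The groups overlapped in both, and the signs were opposite. With 1 array left out the first ran from 0.0244 without Non-exposed replicate 4 to 0.111 without Non-exposed replicate 1, and the second from -0.115 without Non-exposed replicate 4 to -0.0123 without Non-exposed replicate 3. Both lay low on the arrays, at mean levels of 5.40 and 4.62, 2.672 and 3.456 below the median.

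Within the groups, the member probe sets tended to lie low or high together on an array. On Aldrin-exposed replicate 3 the member probe sets lay on average 0.0819 below their own group mean, and 11 of 18 had their lowest exposed value there. On Non-exposed replicate 4 they lay 0.0833 below it, and 12 of 18 had their lowest Non-exposed value there. On Aldrin-exposed replicate 2 they lay 0.0657 above it, on Non-exposed replicate 3 0.0537 and on Non-exposed replicate 1 0.0459. Aldrin-exposed replicate 2 held the highest exposed value of 11 members and Non-exposed replicate 3 the highest Non-exposed value of 9. Whether other probe sets, of low intensity or any other, deviated alike was not tested. The share of all probe sets with their lowest or highest value on these arrays was not computed. Aldrin-exposed replicate 3 and Non-exposed replicate 4 also stood apart on the first principal component (0.621 and 0.439), with Non-exposed replicate 3 on the other side (-0.417). The controls with 20 to 25 G or C bases read 9.405 on Aldrin-exposed replicate 3 and 9.633 on Non-exposed replicate 4. On the other arrays they read from 9.439, on Aldrin-exposed replicate 2 where the members lay high, to 10.1. The controls with 3 to 10 such bases read 3.753 on Aldrin-exposed replicate 3 and 3.73 on Non-exposed replicate 4. On the other arrays these read from 3.72 to 3.848. The part of either set of controls in the members' values was not tested.

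**Figure D3:**
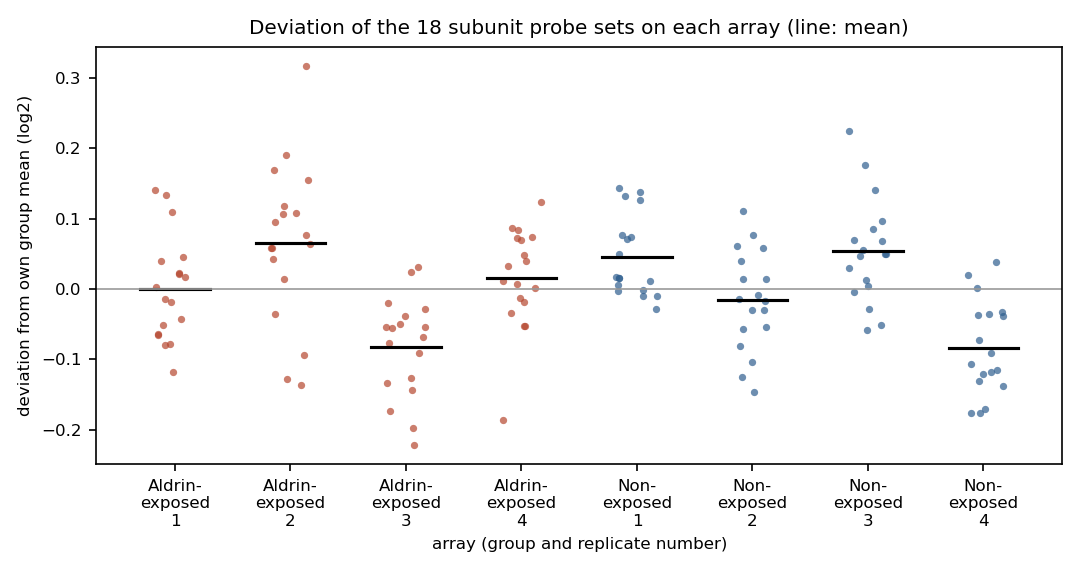
Deviation of each of the 18 member probe sets from the mean of its own group (log2, vertical axis) on each of the 8 arrays, with the mean over the probe sets as a line. The mean lies lowest on Aldrin-exposed replicate 3 and Non-exposed replicate 4, near -0.08 on both.

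Probe sets of other genes whose values followed a member most closely over the 8 arrays were looked for with 2 members. With GABRA5 11736353_at, the brightest, the highest Pearson correlations were those of GON4L (0.993), WDR89 (0.987) and TCHP (0.985), and 687 of 44987 probe sets reached 0.9 or more. With GABRA3 11736402_at, which had the largest difference, they were those of MST1R (0.988) and 2 probe sets of MAFG (0.983 each), and 386 of 44986 reached 0.9. The points share their 8 arrays, and the values are a description.

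The remaining genes of GABA signalling were taken from 7 lists of 42 genes, of which 36 were measured, by 103 probe sets. Of the other GABA-A and GABA-rho subunits, 9 of 12 were measured, and 0 of their 16 probe sets had a mean above the array median. GABRD, whose delta subunit is part of receptors outside the synapse, was nearest to it. Its probe set read 8.12, 8.32, 7.37 and 7.92 in exposed and 8.25, 7.89, 8.42 and 7.72 in Non-exposed cells, above the median on 4 of 8 arrays. The rho subunit gene GABRR2 had a mean of 6.93 and GABRQ, the theta subunit gene, one of 5.35. The readings of GABRA4, GABRA6, GABRG1, GABRG3, GABRR1 and GABRR3 had means from 4.01 to 5.62. All 11 probe sets of the glycine receptor subunits, which form related chloride channels, had means below the median as well.

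The other lists of the pathway differed in level. Of the 32 probe sets for proteins that cluster or carry the receptors, 23 had a mean above the array median in both groups, from 8 of 9 genes. The same held for 4 of 13 probe sets for GABA synthesis and breakdown, 1 of 14 for GABA transport, 2 of 5 for the GABA-B receptor and 4 of 12 for the chloride cotransporters. GABARAPL2 and GABARAP, which belong to the ATG8 family of autophagy proteins and of which GABARAP also binds receptor gamma subunits, reached means of 12.51 and 12.44 by their brightest probe sets. UBQLN1, a ubiquilin that binds GABA-A receptor subunits, reached 12.15 by its brightest. GPHN, which encodes the scaffold protein gephyrin of inhibitory synapses, read 9.55 and 9.44 by its 2 probe sets. Of the genes for GABA synthesis and breakdown, ALDH9A1, an aldehyde dehydrogenase that can make GABA from putrescine-derived aldehyde, read 12.06, 9.96 and 7.35 by its 3 probe sets, and GAD1, a glutamate decarboxylase that makes GABA, read 8.68, 7.33 and 6.35. The chloride importer gene SLC12A2 read 8.75, 8.44 and 6.96, and SLC12A5, the chloride exporter gene of mature neurons, stayed at 7.53 or below. SLC12A7, another gene of the chloride cotransporter list, read higher than both, at 10.36 and 9.26.

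**Figure D4:**
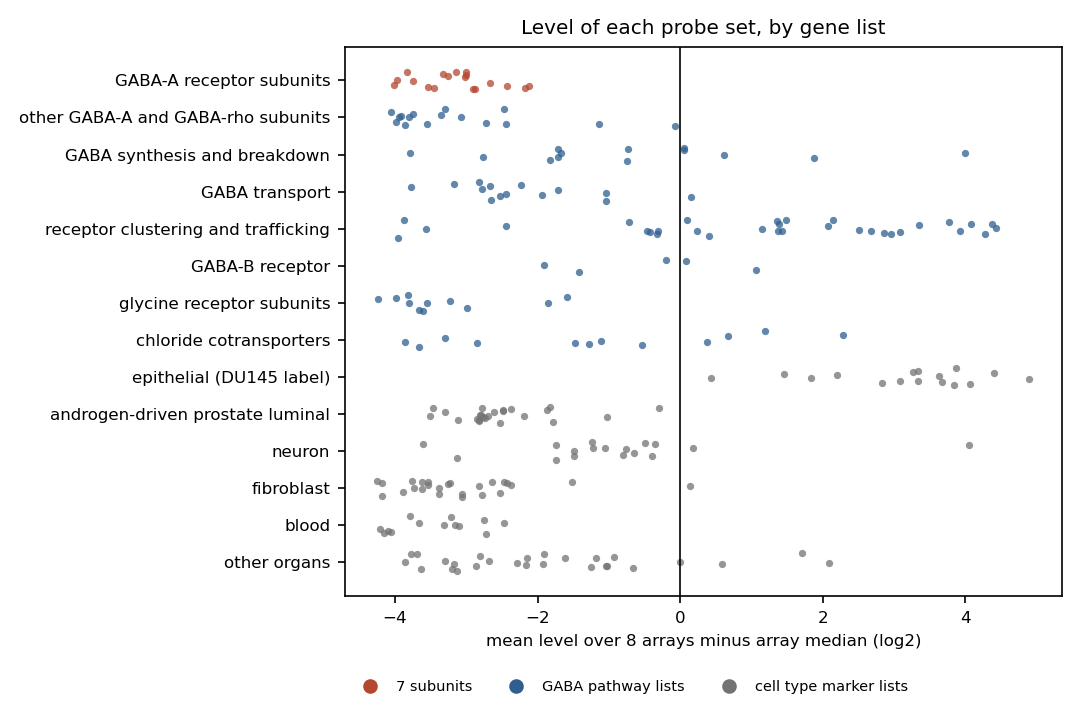
Mean level of each probe set over the 8 arrays minus the array median (log2, horizontal axis), 1 line per gene list, with the 7 subunits at the top, the GABA pathway lists below them and the cell type markers at the bottom (vertical scatter within a line is arbitrary). The 18 subunit probe sets lie between 2.117 and 4.014 below the median, and the 16 epithelial probe sets lie above it.

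None of the 103 probe sets of these lists passed limma at an adjusted p under 0.05, and 2 had an unadjusted p under 0.05, again beside 3.07% of all probe sets. The test with unequal variances called 0 of all 49293 probe sets at an adjusted p under 0.05. One was 11726427_at of GABBR2, a subunit of the metabotropic GABA-B receptor, which read 5.84, 5.91, 6.04 and 6.08 in exposed and 6.45, 6.53, 6.23 and 6.25 in Non-exposed cells. The groups did not overlap, with a difference of -0.40 (SE 0.0975, 95% interval -0.616 to -0.176, exact permutation p = 0.0286, limma adjusted p = 1), and the gene's other probe set, 11745468_a_at, differed by -0.22 (exact permutation p = 0.0571). The other was 11736387_a_at of ABAT, the transaminase that breaks GABA down, at 6.53, 6.49, 6.66 and 6.56 in exposed and 5.83, 5.97, 6.53 and 6.33 in Non-exposed cells, a difference of 0.40 (SE 0.147, exact permutation p = 0.0571, limma adjusted p = 1). Non-exposed replicate 3 of ABAT lay among the exposed values, and the gene's second probe set differed by 0.14 (exact permutation p = 0.257). Of the 103 probe sets 2 had groups that did not overlap, against 1.99% of all probe sets. Besides that of GABBR2 it was a GABRG1 probe set, at 4.05 to 4.09 in exposed and 3.88 to 4.02 in Non-exposed cells (difference 0.12, SE 0.0666, exact permutation p = 0.0286, the smallest possible, limma adjusted p = 1). Limma did not call it at an unadjusted p under 0.05 either, and the gene's other probe set differed by 0.06 with groups that overlapped (exact permutation p = 0.143). A probe set of SLC32A1, the vesicular GABA transporter gene, differed by -0.23 (exact permutation p = 0.0571). A probe set of GLRB, the beta subunit gene of the glycine receptor, differed by 0.20 (exact permutation p = 0.0571). The other SLC32A1 probe set differed by -0.13 (exact permutation p = 0.171). The other GLRB probe sets differed by 0.04, 0.11 and 0.14 (exact permutation p = 0.714, 0.171 and 0.8). The median difference over the 103 probe sets was 0.00224.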

How the data were processed

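Biotin-labelled cRNA from total RNA of DU145 cells had been run on Affymetrix arrays with 1 color. The authors deposited log2 intensities per probe set made with RMA (named in the submitters' processing notes; its version is not given in the sources used here), which corrects background, quantile normalizes arrays and summarises probes. Shifts common to a whole array had thus been removed. All 8 value columns were used and 0 were left out.

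The table holds 49395 probe sets, from which 102 controls were removed before 49293 were tested. By the platform's annotation 44988 named 1 gene, 1832 several and 2473 none. Groups came from the sample labels. They were compared in R 4.3.3 by the moderated two-sided test of limma 3.58.1 with group as the only term, and p-values were adjusted by the Benjamini-Hochberg method across all 49293 probe sets, with a threshold of 0.05. The test was checked on simulated data with arrays independent of each other. It called 49 of 50 probe sets with a true log2 change of 2 at an adjusted p under 0.05. That change is larger than any member difference, so this recovery does not cover differences of the members' size. An exact permutation test over arrays was run for single probe sets. Sequences and gene order came from RefSeq tables of GRCh38.p14 and were read with Python 3.11.15. The number of arrays, 4 a group, limits the precision.

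The members, the gene lists and the tests were chosen with earlier results of these data known. Named were all members, every further GABA-A or rho subunit measured, the 4 pathway genes of highest level and the 4 of smallest p, and the 3 probe sets most alike to 2 members. GPHN, GAD1, SLC12A2, SLC12A5, SLC12A7, the marker genes TUBB3 and MAP2 and the further probe sets of named genes were added after their values were seen. The marker lists were epithelial, prostate luminal, neuronal, fibroblast, blood and other organ genes. Fibroblast markers had 1 of 25 and other organ markers 3 of 27 probe sets with a mean above the array median in both groups. The alternatives were an unequal-variance test, trend and robust variance, weights for arrays, a replicate block, arrays centred on their medians, another round of quantile normalization, a filter on dim probe sets, other reference levels, and each array left out. The removal of the 2 arrays most alike was added after seeing the data.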

Additional observations from a re-analysis of the deposited data

Results flagged for a closer look

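In 1 of 36 sets of 4 values, from 18 probe sets in 2 groups, the gap between an outlying array and its nearest neighbour took up more of the range than Dixon's critical value of 0.829 allows. Non-exposed replicate 4 of GABRA3 11736402_at read 5.10, while the other 3 Non-exposed arrays read 5.32 to 5.34, and the gap was 0.919 of the range. Chance alone would mark about 1 in 20 sets. The same array was the lowest of its group for 12 of 18 member probe sets.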

How the results depend on the processing

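The count of member probe sets above the array median was 0 in both groups with other reference levels, with all 4 arrays required, with 1 array of the group left out and without the 2 arrays most alike, and was not computed for other scalings or fits. The count at an adjusted p under 0.05 was 0 wherever it was computed. A filter that left out probe sets below the median left 0 member probe sets, so it gave no member value. Over all probe sets the count at an adjusted p under 0.05 went from 1 to 0 with the unequal-variance test, with the replicate number as a block (replicate block), with the filter and without the 2 arrays most alike, and to between 0 and 1 with 1 array left out, while the other variance models and scalings gave 1. The deviations of arrays with the same replicate number correlated at 0.314, -0.344, -0.719 and -0.079. The labels do not state whether the numbers mark pairs of samples, and 4 such values cannot settle it. The members at an unadjusted p under 0.05 numbered 0 to 1 with 1 array left out (GABRB2 11761751_at without Aldrin-exposed replicate 2, GABRA3 11736402_at without Non-exposed replicate 4), and those without overlap 0 to 1, and 1 without the 2 arrays most alike. The shares of all probe sets in these settings were not computed. With fewer arrays in a group, groups separate more easily, so these counts are not read as results about the members. The median member difference stayed between -0.0465 and 0.00393 with 1 array left out, and was -0.0579 with 1 probe set a gene.

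Of 216 single values 0 were called and 21 took the other sign, and 12 of 18 probe sets kept their sign throughout. After a second quantile normalization GABRB2 11749967_a_at was at 0.0148 and GABRE 11761105_at at 0.027. Without the 2 arrays most alike GABRB2 11733243_a_at was at 0.00929, GABRB2 11749967_a_at at 0.00586 and GABRE 11761105_at at 0.00618. With 1 array left out the ranges were -0.0166 to 0.056 for GABRA2 11759976_at, -0.04 to 0.0219 for GABRB2 11733243_a_at, -0.0134 to 0.0225 for GABRB2 11749967_a_at, -0.0105 to 0.0788 for GABRE 11734614_a_at, -0.0683 to 0.0283 for GABRE 11745778_a_at and -0.0579 to 0.0417 for GABRE 11761105_at. These differences were all smaller than the median spread within a group, 0.0971. How far the members' levels lie above background was not tested.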
